A study of Mus musculus with 2 samples.

Results

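The phagocyte NADPH oxidase was described through 5 genes of its subunits, Cybb, Cyba, Ncf1, Ncf4 and Rac2, which were chosen by symbol. All 5 were found among the 27998 gene identifiers of the deposited tables, and all 5 had at least 50 unique molecular identifiers (UMIs, tags that each mark 1 captured RNA molecule) over both libraries, as did 9922 genes in all. The cells were a mouse primary leukaemia that carries the fusion oncoprotein MLL-AF9 and the nuclease Cas9, and they were profiled as single cells with a 10x Genomics 3′ kit. The Jumonji library came from cells with a guide RNA against the Jumonji domain of Jmjd1c, a gene of the histone demethylase family. The Renilla library came from cells with a control guide RNA against Renilla luciferase, a gene that mice lack. Both cultures received mouse interleukin-3 at 10 ng/ml and 10% fetal bovine serum, and both carried the fusion and Cas9. The labels gave no age, strain, clone number or time after the guide was introduced, and 1 library of each kind was analysed, so no difference below has a replicate check.

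The oxidase moves electrons from NADPH across a membrane to oxygen and so makes superoxide, with which neutrophils and macrophages attack engulfed microbes. Cybb and Cyba encode the membrane-bound flavocytochrome b, in which Cybb carries the redox centres and Cyba stabilises Cybb and offers the docking site for Ncf1. Ncf1 and Ncf4 belong to a complex that waits in the cytosol and moves to the membrane on stimulation, and the GTPase Rac2 joins it there. In blood formation Cybb in particular is known to become active as granulocytes and monocytes mature.

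Over the cells kept, 575 Jumonji and 608 Renilla, the tables summed to 12809661 and 14418743 UMIs, with medians of 22123 and 23528 UMIs per cell. No barcode was shared. Jmjd1c itself had 1435 UMIs, or 112 CPM (UMIs scaled to the same library total), in the Jumonji library, and 2025 UMIs, or 140 CPM, in the Renilla library. Its log2 ratio was -0.33 (95% counting interval -0.42 to -0.23). Counts of 3′ ends give a level and do not check whether the gene was cut. The summed level of 7 neutrophil markers was 883 CPM against 145 CPM, that of 5 promyelocyte markers 1808 against 5221 CPM, and that of 6 monocyte and macrophage markers 569 against 493 CPM, in the Jumonji and Renilla libraries in that order. The neutrophil sum was mostly S100a8 (498 against 64.3 CPM) and S100a9 (337 against 41.8 CPM), while Camp, a granule peptide gene of the same list, was lower in the Jumonji library (5.07 against 17.2 CPM). The monocyte and macrophage sum was mostly Ly6c2 (372 against 440 CPM), and within it Ctss, Csf1r and Adgre1 were higher in the Jumonji library, with log2 ratios of 3.84, 2.83 and 1.41. The part of these marker differences in the results below was not tested beyond the splits given with them. Ltf, a late granule gene, had no UMI in either library. Erythroid, B cell and T and NK cell markers summed to between 0.0781 and 3.54 CPM, and no group of cells that should lack the oxidase was present, so the share of detection that free RNA alone would give could not be measured.

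The promoter sequences are shown for the 3 members that the RefSeq table on GRCm38.p6 held, because the membrane subunits differed most in level and most in base composition. Each runs 5′ to 3′ on the gene's strand and ends at the base before the annotated start. Capitals mark matches to any of 5 short motifs searched on both strands: GAGGAA for PU.1, TTGCNNAA for C/EBP factors, GAAA, any 2 bases and GAAA again for interferon regulatory factors (IRF), CCAAT for NF-Y and TATAAA for the TATA box. The Cybb stretch is chrX:9469325-9469574, that of Cyba chr8:122432941-122433190 and that of Ncf1 chr5:134229626-134229875, all on the minus strand. A further 30 bases that span the Cybb start, chrX:9469298-9469327, are given for the match after it.
Cybb promoter: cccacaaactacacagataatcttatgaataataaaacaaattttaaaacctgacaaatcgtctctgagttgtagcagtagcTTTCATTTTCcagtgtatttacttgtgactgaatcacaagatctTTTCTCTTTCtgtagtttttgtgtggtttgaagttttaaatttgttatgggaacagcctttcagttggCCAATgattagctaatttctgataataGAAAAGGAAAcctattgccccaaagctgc
Cybb start: tgctgttttcatTTCCTCatcagaagaaga
Cyba promoter: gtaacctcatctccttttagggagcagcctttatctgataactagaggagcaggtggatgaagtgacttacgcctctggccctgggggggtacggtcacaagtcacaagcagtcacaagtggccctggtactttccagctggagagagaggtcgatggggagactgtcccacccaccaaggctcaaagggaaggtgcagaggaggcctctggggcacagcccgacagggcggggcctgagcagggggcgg
Ncf1 promoter: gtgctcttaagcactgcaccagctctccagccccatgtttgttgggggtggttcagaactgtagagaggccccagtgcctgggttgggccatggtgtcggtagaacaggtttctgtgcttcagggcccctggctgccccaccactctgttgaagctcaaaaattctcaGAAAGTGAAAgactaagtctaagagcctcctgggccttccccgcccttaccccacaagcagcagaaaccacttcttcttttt

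The Cybb stretch was 34% G and C, against 60% for Cyba and 54.4% for Ncf1. It held the IRF letters at 3 places, beginning at positions -168 and -124 on the opposite strand and at -29 on the gene's strand, counted from the start. It also held CCAAT at -56, and the PU.1 letters followed the start, on the opposite strand, with their first base at position 10. The Ncf1 stretch held the IRF letters once, at -82, and the Cyba stretch held none of the 5 motifs. Over the same 300 bases around the start, 3.44% of 32851 promoters held the IRF letters, 28.3% GAGGAA, 37.4% CCAAT, 10.8% TTGCNNAA and 13.6% TATAAA. A match describes these letters and is not a binding site, and where no match was found nothing follows about the factor. The RefSeq start of Cybb lies inside the gene span of GENCODE M21, which extends further upstream. Ncf4 and Rac2 were not in the table.

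All 5 members stood higher in the Jumonji library, and the catalytic subunit Cybb differed most. Cybb was 8.24-fold higher (5.54 to 12.7), Cyba 1.90-fold (1.86 to 1.93), Ncf4 1.60-fold (1.52 to 1.69), Rac2 1.45-fold (1.41 to 1.49) and Ncf1 1.26-fold (1.18 to 1.34). Each interval covers counting error at 95% and says nothing of the spread between cultures. At a size of 1.5-fold, 3 of the 5 were counted as higher (Cybb, Cyba and Ncf4), against 11.0% of the 9922 genes with at least 50 UMIs, and none was counted as lower, against 9.04%. At 2-fold only Cybb was counted as higher, against 5.49% of genes, and none as lower, against 2.06%. The counting interval lay above 0 for 5 of 5, as it did for 24.8% of genes. The median log2 ratio was 0.68 over the 5 members and -0.06 over the 9922 genes.

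**Figure D1:**
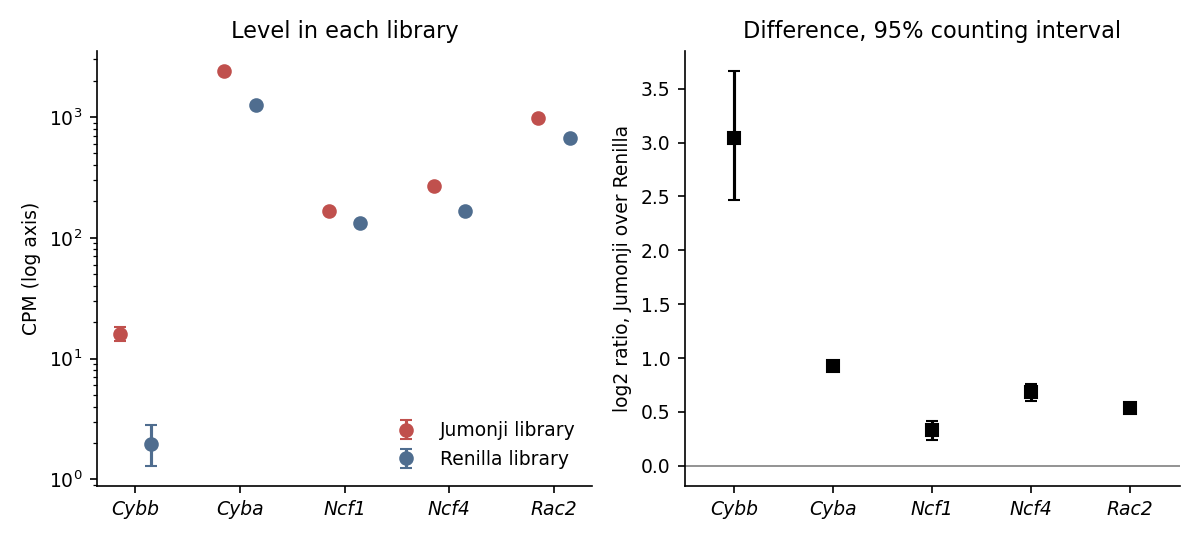
Left, CPM of each member in the Jumonji and Renilla libraries on a log axis, with exact 95% Poisson intervals. Right, log2 ratio of CPM, Jumonji over Renilla, with the 95% counting interval. All 5 ratios lie above 0, from 0.33 for Ncf1 to 3.04 for Cybb.

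The membrane subunits came first in size. Cybb (chromosome X, 9435252 to 9487771, minus strand, GENCODE M21 on GRCm38) had 205 UMIs in the Jumonji library, or 16.0 CPM (13.9 to 18.4), against 28 Renilla UMIs, or 1.94 CPM (1.29 to 2.81). It was the scarcest member in both libraries, and its log2 ratio was 3.04 (2.47 to 3.67). Of the 9922 genes, 67 had a higher ratio. Cyba (chromosome 8, 122424776 to 122432930, minus strand) had 30743 UMIs, or 2400 CPM (2373 to 2427), in the Jumonji library and 18232 Renilla UMIs, or 1264 CPM (1246 to 1283). It was the most counted member in both, its log2 ratio was 0.92 (0.90 to 0.95), and 615 genes had a higher ratio. The kit counts 3′ ends and not lengths of RNA, and capture may differ between genes, so the order of members by UMIs is an order of captured molecules.

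Ncf1 (chromosome 5, 134220053 to 134229625, minus strand), the organiser that links the cytosolic complex to Cyba, had 2128 UMIs, or 166 CPM (159 to 173), in the Jumonji library and 1904 Renilla UMIs, or 132 CPM (126 to 138). Its log2 ratio of 0.33 (0.24 to 0.42) was the lowest of the 5, and 1995 genes had a higher one. Ncf4 (chromosome 15, 78244801 to 78262580, plus strand), which binds a phosphoinositide on the phagosome, had 3422 UMIs, or 267 CPM (258 to 276), and 2402 UMIs, or 167 CPM (160 to 173), in the Jumonji and Renilla libraries. Its log2 ratio was 0.68 (0.61 to 0.76), with 909 genes above it. Rac2 (chromosome 15, 78559167 to 78572783, minus strand), the GTPase form of blood cells, had 12527 UMIs, or 978 CPM (961 to 995), in the Jumonji library and 9728 Renilla UMIs, or 675 CPM (661 to 688). Its log2 ratio was 0.54 (0.50 to 0.57), with 1212 genes above it. The counting intervals of the 2 libraries did not overlap for any of the 5 members. The share of all genes for which this holds was not counted, so it is no result about the members.

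Rac1, the widely expressed relative of Rac2, was at 119 and 120 CPM in the Jumonji and Renilla libraries, and its log2 ratio of -0.00 (-0.11 to 0.10) spanned 0. The gene named BC017643 in the tables, whose identifier is that of Cybc1, a chaperone that helps the flavocytochrome to mature, had a log2 ratio of 0.56 (0.37 to 0.75).

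The share of cells with a UMI was compared after every cell was thinned at random to 10000 UMIs, which left out 55 Jumonji and 29 Renilla cells below that depth. Cybb was detected in 58 of 520 Jumonji cells, or 11.2% (8.58 to 14.2), and in 10 of 579 Renilla cells, or 1.73% (0.831 to 3.15). Ncf4 was detected in 90.6% (87.7 to 92.9) of Jumonji and 75.1% (71.4 to 78.6) of Renilla cells, and Ncf1 in 80.0% (76.3 to 83.4) and 71.8% (68.0 to 75.5). Cyba and Rac2 were near the ceiling. Cyba was found in 100% of Jumonji and 99.8% of Renilla cells, and Rac2 in 100% and 99.7%, so that their differences lay in the number of UMIs per cell. The median thinned count of Cyba was 24 UMIs in Jumonji and 12 UMIs in Renilla cells, and that of Rac2 10 and 6 UMIs. With all UMIs kept, Cybb was detected in 98 of 575 Jumonji cells, or 17.0%, and in 18 of 608 Renilla cells, or 2.96%.

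**Figure D2:**
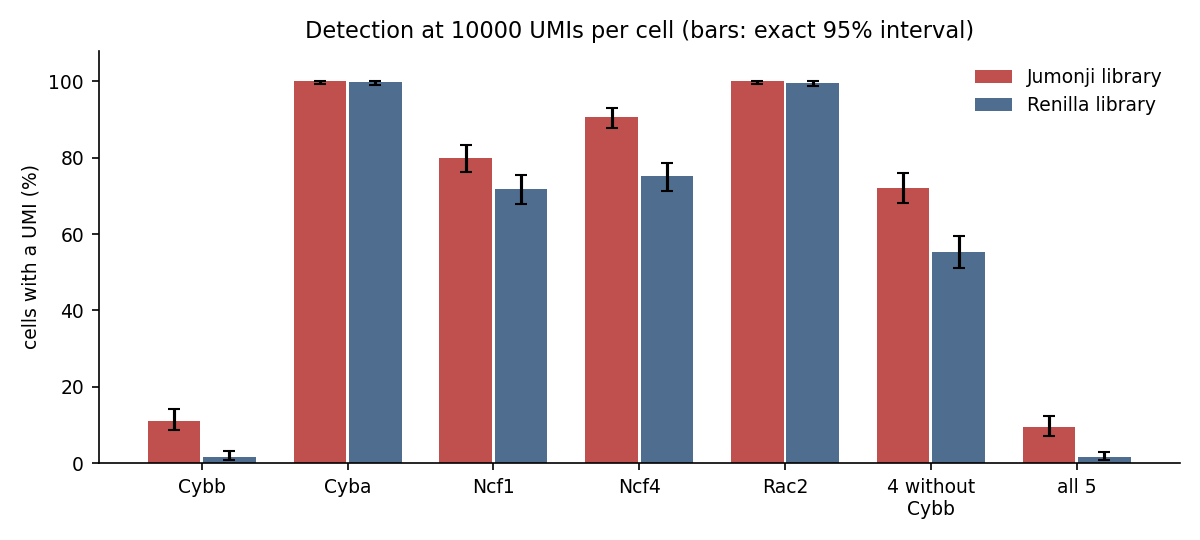
Percent of cells with at least 1 UMI after thinning to 10000 UMIs per cell, for each member, for the 4 members without Cybb together and for all 5 together, in 520 Jumonji and 579 Renilla cells. Error bars are exact 95% binomial intervals. Cyba and Rac2 reach the ceiling in both libraries, and the bars for all 5 members stand near those for Cybb.

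Most cells with a Cybb UMI held few of them. Among Jumonji cells with all UMIs kept, 52 had 1 Cybb UMI, 20 had 2 and 26 had 3 or more, up to 10. Among Renilla cells 11 had 1, 6 had 2 and 1 had 5. At such counts a cell without a UMI cannot be called a cell without the transcript. Cyba was counted in every kept cell of both libraries, with 10 to 156 UMIs (median 52) in Jumonji cells and 1 to 80 UMIs (median 28) in Renilla cells. The ranges overlapped widely.

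Detection of all 5 members in 1 cell was limited by Cybb. At 10000 UMIs, 49 Jumonji cells, or 9.42% (7.05 to 12.3), and 9 Renilla cells, or 1.55% (0.713 to 2.93), held a UMI of all 5. The 4 members without Cybb were detected together in 72.1% (68.0 to 75.9) of Jumonji and 55.3% (51.1 to 59.4) of Renilla cells. Of the cells with a Cybb UMI, 49 of 58 in the Jumonji library and 9 of 10 in the Renilla library also held the other 4. The product of the single shares, which is what independent detection would give, was 8.08% for all 5 members in the Jumonji library and 0.927% in the Renilla library. For the 4 members without Cybb it was 72.5% and 53.7%. Exactly 4 members were detected in 335 Jumonji and 312 Renilla cells, 3 in 128 and 207 cells, and 2 in 8 and 51 cells. No cell held fewer.

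Cells with a Cybb UMI had more of the other subunits than cells without one. In the Jumonji library the 58 cells with Cybb averaged 33.1 Cyba, 4.03 Ncf4, 12.3 Rac2 and 2.26 Ncf1 UMIs per 10000, and the 462 cells without it averaged 24.6, 2.64, 9.77 and 1.72. In the Renilla library the 10 cells with Cybb averaged 20.7 Cyba, 3.40 Ncf4, 8.10 Rac2 and 2.80 Ncf1 UMIs, and the 569 cells without it averaged 12.6, 1.59, 6.58 and 1.33. They differed more in S100a8, a calcium-binding protein of neutrophils that also aids oxidase assembly. S100a8 averaged 28.0 UMIs in Jumonji cells with Cybb and 2.93 in those without, and 20.3 UMIs in Renilla cells with Cybb and 0.564 in those without. Mpo, the myeloperoxidase of primary granules, went the other way, with 0.190 and 0.645 UMIs in Jumonji cells with and without Cybb, and 0.90 and 5.94 UMIs in the Renilla cells with and without it. Elane and Prtn3, the only other primary granule genes compared in this way, did not share that direction in the Jumonji library. Elane averaged 8.34 UMIs in Jumonji cells with Cybb and 6.71 in those without, and Prtn3 8.12 and 7.30. In Renilla cells with and without Cybb, Elane averaged 13.9 and 17.6 UMIs and Prtn3 15 and 17.0. These are means over cells of 1 library each, and the Renilla values for cells with Cybb rest on 10 cells.

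Grouping cells by S100a8 gave the same picture in both libraries. Of Jumonji cells with no S100a8 UMI at 10000 UMIs, 18 of 358, or 5.03% (3.01 to 7.83), held Cybb. With 1 to 4 S100a8 UMIs it was 10 of 93, or 10.8%, and with 5 or more 30 of 69, or 43.5% (31.6 to 56.0). Of Renilla cells the shares in the same order were 5 of 525, or 0.952% (0.310 to 2.21), 1 of 42, or 2.38%, and 4 of 12, or 33.3% (9.92 to 65.1), the last from fewer than 20 cells. S100a8 at 5 UMIs or more marked 13.3% of Jumonji and 2.07% of Renilla cells. Within the cells with no S100a8 UMI the log2 ratio of Cybb between the libraries was 2.75 (1.54 to 4.17), and that of Cyba 0.98. The Renilla side of this Cybb ratio rests on 5 cells with Cybb. This class was not matched between the libraries in other respects. The cluster with the highest Ctss level, described below, held 63 of its 358 Jumonji cells and 11 of its 525 Renilla cells. Cybb was highest in that cluster among Jumonji cells. Of the 69 Jumonji cells with 5 or more S100a8 UMIs, 5 lay in it, so that class and that cluster were largely different cells. Whether the Cybb ratio in cells with no S100a8 UMI holds at equal maturation was not tested. Mean Cyba in the 3 classes was 24.1, 26.6 and 31.6 UMIs in Jumonji cells and 12.2, 14.6 and 28.3 UMIs in Renilla cells. S100a8 was chosen for this split after Cybb was seen to follow it across cells.

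The link to granule and maturation genes was read from cells ranked by the summed thinned count of a list, with the members left out, and divided into 5 bins of 104 Jumonji or 115 to 116 Renilla cells. Along the secondary granule and neutrophil list, Cybb was detected in 1.92%, 2.88%, 6.73%, 4.81% and 39.4% of Jumonji cells and in 0.862%, 0.862%, 0.862%, 0% and 6.09% of Renilla cells, low bin to high bin. The rise lay in the top bin in both libraries. This list holds S100a8 and S100a9, so its bins are not independent of the S100a8 classes above. Hp, another gene of the list, averaged 13.3 and 11.0 UMIs in Jumonji cells with and without Cybb, and 4.7 and 3.21 UMIs in Renilla cells. The largest Jumonji levels of the list were those of Hp (1061 CPM), Cebpe (532 CPM) and S100a8 (498 CPM). Lcn2, Ngp and Camp were at 21.2, 38.8 and 5.07 CPM and Ltf had no UMI, so these granule genes add little to the sum. How far S100a8 and S100a9 set these bins was not tested. Along the monocyte and macrophage maturation list the shares were 1.92%, 6.73%, 4.81%, 10.6% and 31.7% in Jumonji cells and 0%, 0%, 0%, 0.862% and 7.83% in Renilla cells. A count of 0 in a bin of 116 Renilla cells allows a share of up to 2.59% of cells with a detected UMI, and says nothing of transcripts below detection. In the primary granule list the largest Jumonji levels were those of Srgn (1633 CPM) and Calr (1060 CPM), then Prtn3 (778 CPM) and Elane (730 CPM). Mpo and Ctsg were at 68.4 and 87.0 CPM, so they add little to the Jumonji sums. The log2 ratios of the list ran from -3.15 for Mpo to 1.49 for Cst7. Along the bins of this list Cybb was found in 16.3%, 14.4%, 8.65%, 6.73% and 9.62% of Jumonji cells, so that each of the upper 3 bins lay below the lower 2. In Renilla cells the shares were 2.59%, 2.59%, 1.72%, 0.862% and 0.870%. These rest on 10 cells with Cybb in all. None exceeds the limit for a count of 0, so no order is read from them. The bins of the 2 libraries cover different list sums, since the lists themselves differ in level, and are not matched.

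Cyba followed the same lists by degrees rather than in the top bin alone in the Jumonji library. Its mean was 18.3, 21.3, 25.6, 28.5 and 34.0 UMIs along the secondary granule and neutrophil bins of Jumonji cells. Along those of Renilla cells it was 10.1, 12.0, 13.2, 12.1 and 16.1 UMIs. Along the monocyte and macrophage bins it was 18.0, 21.9, 24.0, 30.3 and 33.4 UMIs in Jumonji cells, and 11.7, 12.1, 12.2, 12.8 and 14.9 UMIs in Renilla cells. Even the top Renilla bins were below the lowest Jumonji bins of these lists.

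**Figure D3:**
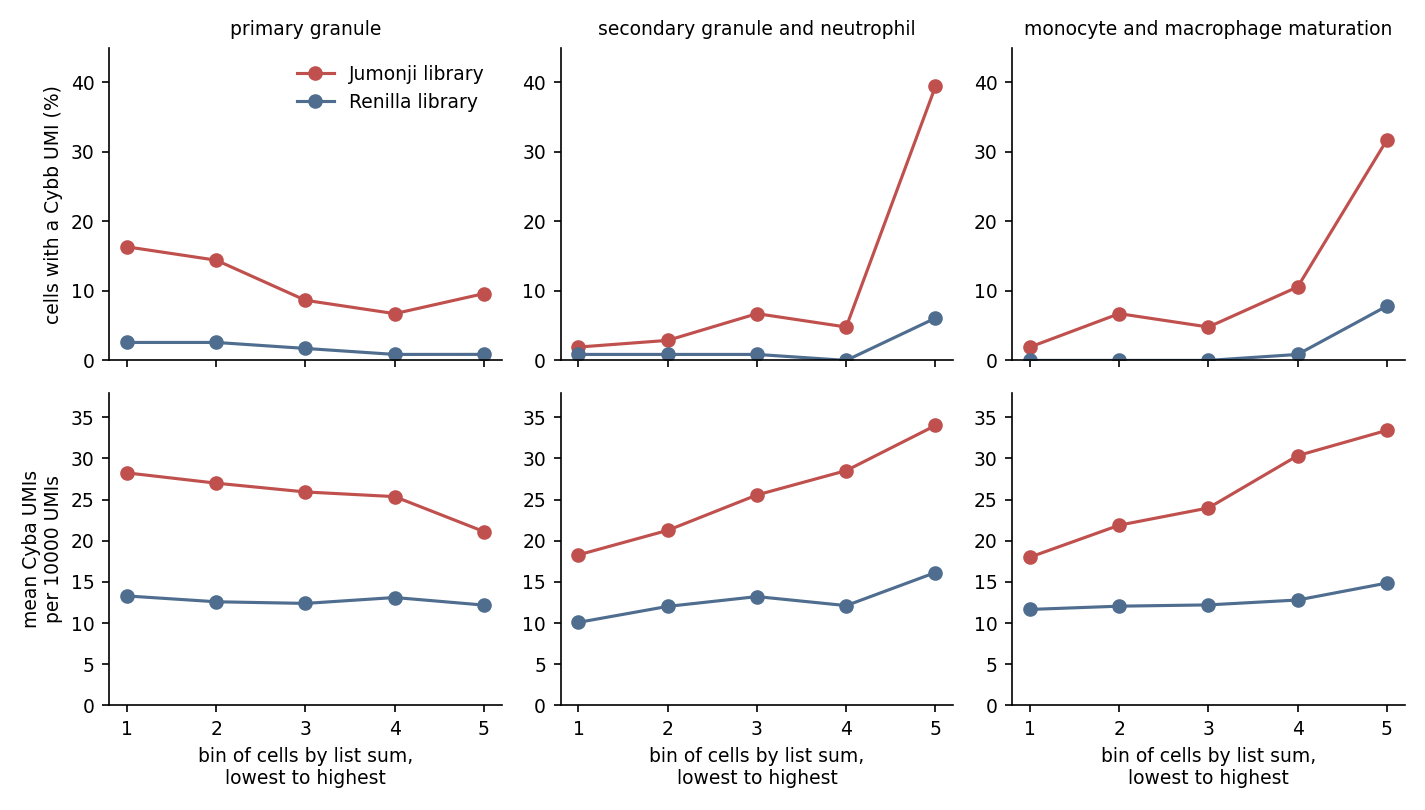
Percent of cells with a Cybb UMI (top) and mean Cyba UMIs per 10000 UMIs (bottom) in 5 bins of cells ranked, within each library, by the summed thinned counts of the primary granule, secondary granule and neutrophil, and monocyte and macrophage maturation lists. In the secondary granule and neutrophil panel Cybb is most often detected in the top bin, at 39.4% of Jumonji and 6.09% of Renilla cells. The same holds in the monocyte and macrophage panel, at 31.7% of Jumonji and 7.83% of Renilla cells.

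Across cells, Pearson correlations on thinned log2(count + 1) described the same links with 520 Jumonji and 579 Renilla cells, which share a culture and a library each. With the secondary granule and neutrophil list r was 0.44 and 0.24 for Cybb and 0.47 and 0.37 for Cyba in Jumonji and Renilla cells. In the same order it was 0.33 and 0.26 for Ncf4, and 0.27 and 0.23 for Rac2. With the monocyte and macrophage list it was 0.33 and 0.20 for Cybb and 0.50 and 0.18 for Cyba. With the primary granule list r was -0.17 and -0.11 for Cybb, -0.26 and -0.01 for Cyba, and -0.05 and 0.14 for Ncf4, whose mean was 1.26 UMIs in the lowest and 1.97 UMIs in the highest primary granule bin of Renilla cells. Some values moved with the measure. By Spearman the Renilla r of Cybb with the secondary granule and neutrophil list was 0.13. With all UMIs kept the Jumonji r with the primary granule list was -0.31 for Cybb and -0.13 for Cyba. Ncf1 had r of at most 0.16 with any of these lists in either library, and r of 0.00 and 0.16 with Ncf4 in Jumonji and Renilla cells. At about 2 Ncf1 UMIs per cell a low r is no finding.

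Among 5303 genes with at least 200 UMIs in each library, the 3 most like each member were ranked by the lower of the r in the 2 libraries. For Cybb they were S100a8 (r of 0.45 in Jumonji and 0.36 in Renilla cells), its partner S100a9 (0.43 and 0.35) and Gm5483 (0.47 and 0.32), listed by RefSeq as Cstdc4. For Cyba they were Tmsb4x (0.42 and 0.46), which encodes a thymosin that binds actin monomers, Tyrobp (0.63 and 0.40), an adaptor of myeloid receptors, and Gm5483 (0.33 and 0.32). Ncf4 was closest to Tmsb4x (0.34 and 0.35), the peroxiredoxin Prdx5 (0.31 and 0.28) and Cd33 (0.30 and 0.27). Rac2 was closest to Tmsb4x (0.31 and 0.37), the ferritin light chain Ftl1 (0.32 and 0.30) and the histone gene H3f3a (0.28 and 0.28). For Ncf1 the 3 nearest, Hebp1, Msrb1 and Malat1, reached at most 0.14.

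The joint clustering, built without the members and without genes at least 1.5-fold apart between the libraries, gave 6 clusters, numbered here by the level of the cathepsin gene Ctss. No cluster was given a cell type. Every cluster held cells of both libraries, in different proportions. Clusters 1, 2 and 3 held 11, 27 and 56 Jumonji cells and 119, 183 and 94 Renilla cells, and clusters 4 and 5 held 212 and 158 Jumonji cells and 116 and 81 Renilla cells. Cluster 6, led by Mmp8, Ctss, Ccl9 and Wfdc17, held 111 Jumonji cells (19.3%) and 15 Renilla cells (2.47%), with a median of 12842.5 UMIs per cell, below that of either library, so that 74 and 13 of them remained after thinning. Cybb was at 60.2 CPM (48.1 to 74.5) there in the Jumonji library, with an interval above those of the other 5 clusters. In the Renilla library it was at 15.7 CPM (4.28 to 40.2), from 4 UMIs, an interval that overlapped that of cluster 4. In cluster 4 it was at 14.2 CPM (11.3 to 17.7) in the Jumonji and 5.53 CPM (3.22 to 8.86) in the Renilla library, and in cluster 5 at 11.8 CPM (8.34 to 16.2) and 2.89 CPM (0.939 to 6.75), the last from 5 UMIs. In clusters 1 to 3 it had at most 3 UMIs in either library, and the 0 UMIs in the 11 Jumonji cells of cluster 1 leave room for up to 9.75 CPM. The log2 ratio was 1.36 (0.59 to 2.21) in cluster 4, 2.03 (0.68 to 3.73) in cluster 5 and 1.94 (0.53 to 3.85) in cluster 6. Cluster 6 held 41.5% of the Cybb UMIs of the Jumonji library and 14.3% of those of the Renilla library. Without it the log2 ratio of Cybb over all other cells was 2.64. The mean of the 3 clusters that gave a ratio was 1.78. The 3.04 over all cells also takes in clusters 1 to 3, so these values cover different cells and are not compared.

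Cyba stood at 3452 CPM in the Jumonji cells of cluster 6 and 2036 CPM in the Renilla cells, and at 1242 and 1084 CPM in cluster 1. Its ratio was above 0 in 6 of 6 clusters, with log2 values of 0.20, 0.34, 0.46, 0.82, 0.79 and 0.76 from cluster 1 to cluster 6. Rac2 was also above 0 in 6 of 6, between 0.26 and 0.52, with an interval above 0 in each. Ncf4 was above 0 in 6 of 6, between 0.23 and 0.64, with an interval above 0 in 5. Ncf1 was above 0 in 4 of 6 clusters, from -0.07 to 0.73, and its interval lay above 0 in 2 of them. In cluster 6 Ncf1 was at 266 CPM in Jumonji cells and 161 CPM in Renilla cells, and in cluster 4 at 143 CPM in both. Averaged over clusters the log2 ratios were 0.56 for Cyba, 0.40 for Ncf4, 0.36 for Rac2 and 0.23 for Ncf1, each below the value over all cells. A mean over clusters gives the 11 Jumonji cells of cluster 1 the weight of the 212 of cluster 4.

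**Figure D4:**
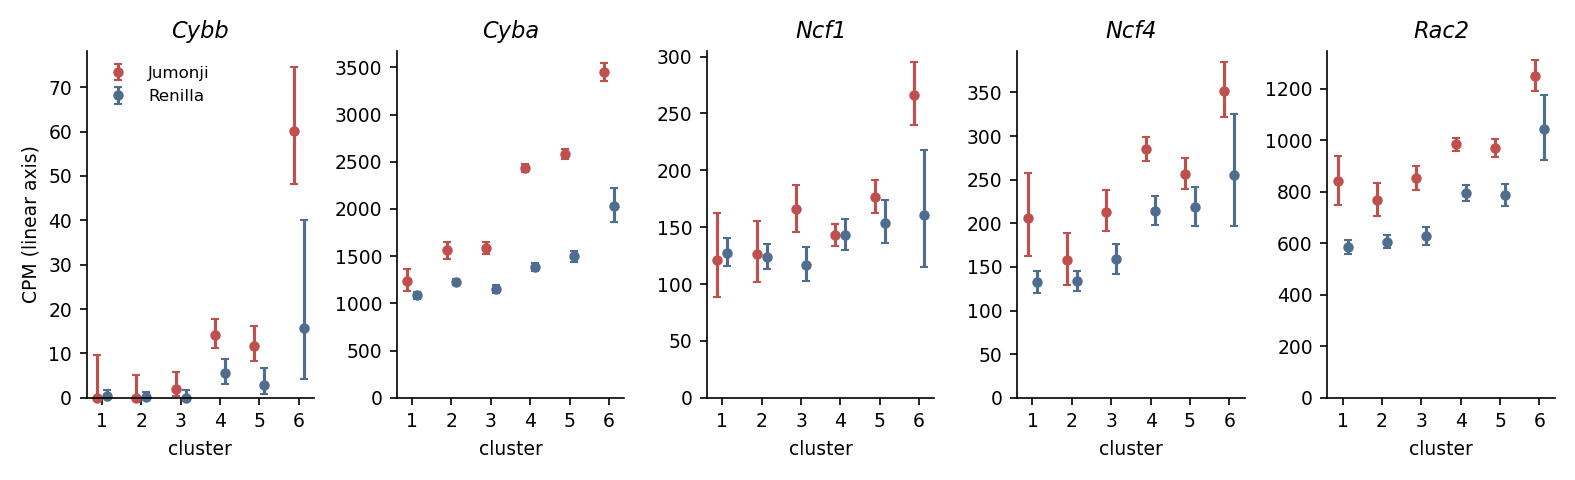
CPM of each member in clusters 1 to 6, in Jumonji and Renilla cells, on linear axes that differ between panels. Bars are exact 95% Poisson intervals. Cybb has at most 3 UMIs per library in each of clusters 1 to 3, which hold few Jumonji cells, and is at 60.2 CPM in Jumonji and 15.7 CPM in Renilla cells of cluster 6, while Cyba and Rac2 are present in every cluster.

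Ncf4 and Rac2 lie on chromosome 15 with 296.587 kb between them, and the genes around them were read for that reason. Between them lie Csf2rb2 and Csf2rb, which encode beta chains of cytokine receptors, the interleukin-3 receptor among them. Csf2rb2 had 20.2 CPM in the Jumonji library and 4.85 CPM in the Renilla library, a log2 ratio of 2.06 (1.67 to 2.46). Csf2rb had 117 and 35.2 CPM, a log2 ratio of 1.73 (1.58 to 1.88). Their sequences are nearly the same, which leaves uncertain how UMIs were divided between this pair. Tst and Mpst, which also lie between, had log2 ratios of 0.07 (-0.18 to 0.33) and 0.51 (0.35 to 0.67), and Cyth4, beyond Rac2, of 0.43 (0.26 to 0.59). Mfng, further on, was lower in the Jumonji library at -0.65 (-0.86 to -0.43). Within 500 kb, 12 measured neighbours of Ncf4 had a median of 0.30, with 3 at least 1.5-fold higher, and 16 of Rac2 a median of 0.08, with 4 higher. The windows of these members overlap: Csf2rb2 and Csf2rb are counted for both, and Ncf4 is itself among the 4 higher neighbours of Rac2. Over all genes 11.0% were that much higher. The 15 measured neighbours of Cyba had a median of 0.02 and none that much higher. The 10 of Ncf1 had a median of -0.05 and 3 at least 1.5-fold lower, Gtf2i (-0.78), Wbscr16 (-0.77) and Gtf2ird1 (-0.66). Cybb, Cyba, Ncf4 and Rac2 each had 1 neighbour that much lower, as were 9.04% of all genes. Of the 2 measured neighbours of Cybb, Dynlt3 had 0.21 (0.01 to 0.41) and Xk -0.82 (-1.27 to -0.38).

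The rest of the oxidase pathway was read from 9 lists with 123 genes, of which 105 had at least 50 UMIs. Of these, 30, or 28.6%, stood 1.5-fold or more above the Renilla level in the Jumonji library, against 11.0% of all 9922 genes, and 5, or 4.76%, were that much lower, against 9.04%. Their median log2 ratio was 0.24. The lists and members were chosen with results of these data known, and some lists hold genes that lead the difference between the libraries, so the share describes the pathway and tests nothing.

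Receptors that trigger the burst had the largest share counted as higher. Of 15 measured, 11 were at least 1.5-fold higher, against 11.0% of all genes, and none was that much lower, against 9.04%. Their median log2 ratio was 1.10. Ptafr, the receptor of platelet-activating factor, had 15.6 CPM in the Jumonji library and 2.08 CPM in the Renilla library, a log2 ratio of 2.91 (2.35 to 3.51). C5ar1, the complement C5a receptor, had 4.06 and 0.624 CPM, a ratio of 2.70 (1.67 to 3.91). Tlr2, which senses bacterial lipoproteins, had a log2 ratio of 2.16 (1.64 to 2.71), and Tlr4, the receptor of lipopolysaccharide, one of -0.07 (-0.45 to 0.32). Among receptors for antibody the log2 ratios were 1.97 for Fcgr4, 1.01 for the inhibitory Fcgr2b and 1.10 for the shared signalling chain Fcer1g. The integrin chains Itgam and Itgb2, which bind complement-coated particles, were at 1.40 and 1.07. The tables list Itgam under a pair of identifiers whose gene models overlap in GENCODE M21, and only the first was counted, so its level is uncertain. The formyl peptide receptors Fpr1 and Fpr2 had no UMI in either library.

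Of the kinases and lipid enzymes that act on the oxidase, 17 were measured, with a median of 0.24. Of these, 5 were at least 1.5-fold higher, against 11.0% of all genes, and 1 was that much lower, against 9.04%. The Src-family kinase Lyn had 73.8 CPM in the Jumonji library and 32.5 CPM in the Renilla library, a log2 ratio of 1.18 (1.02 to 1.35). Prkcd, a protein kinase C that phosphorylates Ncf1, had 103 and 52.0 CPM and a log2 ratio of 0.98 (0.85 to 1.11). Pak1, a kinase that Rac activates, was lower, at 21.6 and 47.0 CPM, with -1.12 (-1.33 to -0.92). Among 14 measured Rac regulators the median was 0.14. Of these, 2 were at least 1.5-fold higher, a share near the 11.0% of all genes, and none was that much lower, against 9.04%. The higher ones were Prex1 at 1.27 (0.83 to 1.71), an exchange factor of neutrophils, and Arhgap25 at 0.74 (0.43 to 1.06). Vav2 and Elmo1 were the lowest, at -0.44 (-1.31 to 0.40) and -0.20 (-0.37 to -0.03).

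Genes of NADPH supply differed little between the libraries. None of 12 measured NADPH supply genes was 1.5-fold higher or lower, against 11.0% and 9.04% of all genes, and their median was 0.05. The highest were Me2, a malic enzyme, at 0.51 and G6pdx, which starts the pentose phosphate pathway, at 0.45, and the lowest were Pgls at -0.38 and Rpia at -0.55. Of 24 genes of peroxide removal 6 were at least 1.5-fold higher, against 11.0% of all genes, and 1 was lower, against 9.04%, while their median was 0.04. At 2-fold 4 were higher, against 5.49% of all genes, and none was lower, against 2.06%. Hmox1, the haem oxygenase, had 27.8 CPM in the Jumonji library and 3.12 CPM in the Renilla library, a log2 ratio of 3.15 (2.70 to 3.64). Nqo1 was at 1.99 (1.38 to 2.65), Gclm, of glutathione synthesis, at 1.41 (1.28 to 1.55), and Nfe2l2, the factor that drives many of these genes, at 1.08 (0.84 to 1.32). Others of the list did not follow. Gclc, also of glutathione synthesis, was at -0.33 (-0.59 to -0.08) and Txnrd1 at 0.24 (0.11 to 0.36). Srxn1 and Slc7a11 were at -0.15 and -0.23, with intervals that span 0. Gpx1, a glutathione peroxidase, was lower at -0.64 (-0.67 to -0.61). Mpo, which turns the peroxide into hypochlorous acid, had 68.4 CPM in the Jumonji library and 607 CPM in the Renilla library, a log2 ratio of -3.15 (-3.25 to -3.05), while Epx, its eosinophil relative, was at 1.03 (0.61 to 1.47).

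Among the other genes of the complex and its assembly, 7 were measured, with a median of 0.56. Of these, 3 were at least 1.5-fold higher, against 11.0% of all genes, and none was that much lower, against 9.04%. S100a8 and S100a9 were the highest, at 2.95 (2.85 to 3.05) and 3.01 (2.89 to 3.14). Rap1a was at 0.49 (0.42 to 0.57), and Hvcn1, the proton channel that balances the charge the oxidase moves, at 0.38 (-0.22 to 0.98), an interval that spans 0. No other NADPH oxidase gene was measured. Noxo1 had 7 UMIs in the Jumonji and 4 in the Renilla library, Duoxa2 had 3 and 8, and the other 7 genes of that list had none.

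Of the transcription factors tied to oxidase genes, 14 were measured, with a median of 0.04. The interferon regulatory factors Irf8 and Irf2 were higher, at 1.29 (1.15 to 1.43) and 1.18 (0.95 to 1.42), and Irf1 was at -0.02 (-0.51 to 0.46). Spi1, which encodes PU.1, had 537 CPM in the Jumonji library and 393 CPM in the Renilla library, a log2 ratio of 0.45 (0.40 to 0.50). Gfi1, a repressor active in granulocyte precursors, and Cebpa were the lowest, at -0.94 (-1.20 to -0.69) and -0.92 (-1.23 to -0.62). Clec7a and Cebpd, which the lists also named, were not analysed here.

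**Figure D5:**
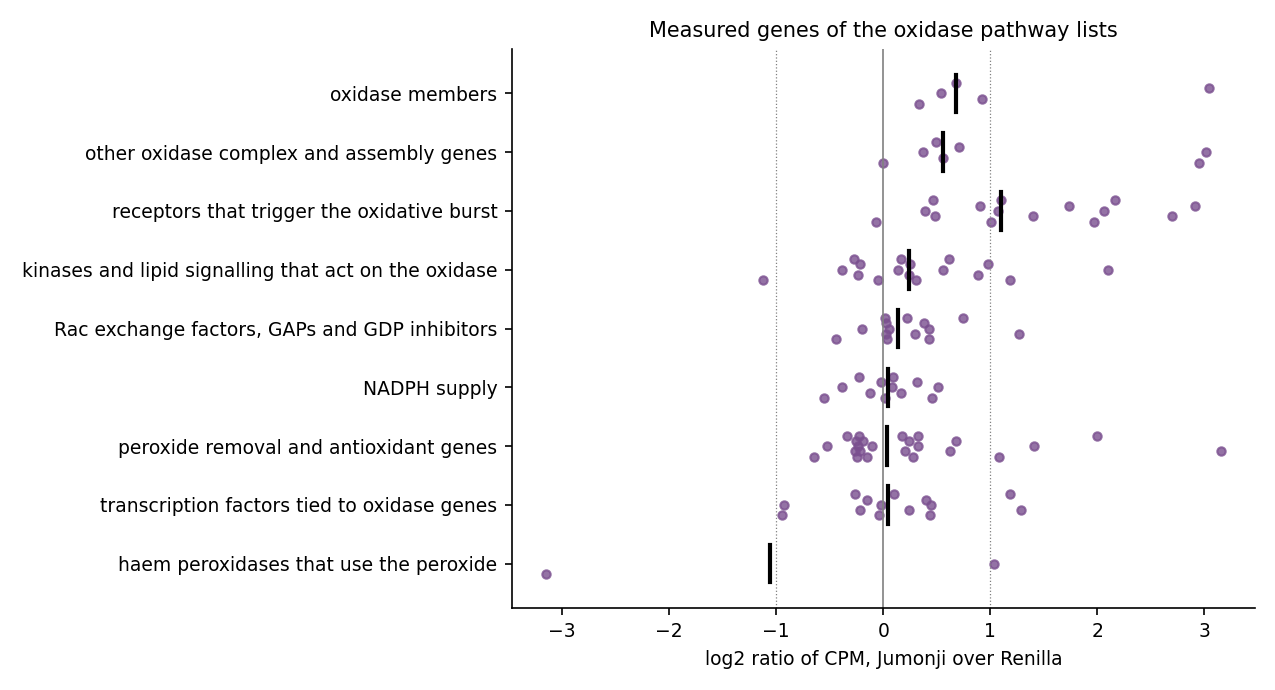
Log2 ratio of CPM, Jumonji over Renilla, of each measured gene in the oxidase lists, 1 point per gene, with the list median as a black bar. Dotted lines mark a 2-fold difference either way. The receptor list has the highest median of the lists plotted, 1.10, and the peroxidase list holds Mpo at -3.15.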

How the data were processed

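Single-cell RNA was measured in 1 Jumonji and 1 Renilla library with a Chromium 3′ kit of version 2 chemistry, per the labels' protocols. The deposited values are raw UMI counts per gene and barcode. Cell Ranger 1.3.1 and build mm10 are named in the submitters' processing notes, while the annotation release and how cells were called is not given in the sources used here. Coordinates came from GENCODE M21, in which 27645 of 27998 identifiers were found.

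A barcode was kept if it had 500 or more genes and no more than 10% mitochondrial UMIs, which left out 77 of 652 Jumonji and 43 of 651 Renilla barcodes, all by the mitochondrial limit. Scrublet marked 4 Jumonji and 10 Renilla cells, which were kept. UMIs were summed per library and scaled to CPM. Sums carry exact Poisson intervals, ratios the exact conditional binomial interval and shares the Clopper-Pearson interval, all at 95% and for counting error only. With 1 library per condition no test was made, and genes were counted as higher or lower by size alone. No ratio was given within a cluster under 10 UMIs. All kept cells were clustered, without thinning, with scanpy 1.11.5 and leidenalg 0.10.2, leaving out 5478 genes, the members among them. Thinning to 10000 UMIs was used for the shares of cells, the bins and the correlations. The clusters were thus not matched for depth, and their median UMIs per cell ran from 12842.5 in cluster 6 to 27131.5 in cluster 1. The design assumed 7 clusters and 6 were found. Correlations used a pseudocount of 1.

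The members, the lists and the rule for named genes (the members, list genes at least 2-fold apart or else the 2 highest and 2 lowest, the 3 most similar genes and neighbours within 500 kb) were chosen with earlier results of these data known. Alternatives changed the cells kept, doublets, scale, cell weights, depth, the UMI minimum, the correlation measure and the clusters included. On simulated counts of this comparison, 200 of 200 genes changed 3-fold passed 2-fold, as did 6 unchanged genes of 9914 in all, and 96.2% of intervals held the true ratio. The simulated sums were drawn with counting error only, the error that the interval assumes. They held no spread between cells or cultures, so the check says nothing of either. Python 3.11.15, numpy 2.4.6, scipy 1.17.1 and pandas 2.3.3 were used. Some genes of the lists enter the counts and medians but are not reported here by name.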

Additional observations from a re-analysis of the deposited data

Results flagged for a closer look

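Barcodes above 10% mitochondrial UMIs were outside every comparison above, and Cyba and Rac2 gave a signal in those of the Jumonji library that was above the level in the same kind of Renilla barcode. Cyba was at 6114 CPM (5880 to 6355) in the 77 Jumonji barcodes and at 1441 CPM (1297 to 1597) in the 43 Renilla barcodes, against 2400 and 1264 CPM in the kept cells of the Jumonji and Renilla libraries. Every one of the 77 Jumonji barcodes held Cyba, and their median was 5891 CPM, so the value did not rest on a few of them. Rac2 was at 623.5 CPM (550 to 704) in the Jumonji barcodes and 372 CPM (301 to 455) in the Renilla barcodes, below the 978 and 675 CPM of the kept cells. In the same barcodes Cybb had 0 UMIs in the Jumonji and 1 in the Renilla library, Ncf4 was at 135 CPM (102 to 175) and 178 CPM (130 to 238), and Ncf1 at 121 CPM (90.0 to 159) and 234 CPM (178 to 301). These barcodes were shallow, with medians of 4804 UMIs in the Jumonji and 5694 UMIs in the Renilla library, and what sets their Cyba level was not tested.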

How the results depend on the processing

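No paired analysis was possible because each condition had 1 library, and no replicate could be left out for the same reason. No ratio of a member changed sign under any alternative run, and 26 of 45 stayed within their counting interval. The log2 ratio of Cyba was 0.99 over all deposited barcodes, 0.89 with at least 1000 genes and at most 5% mitochondrial UMIs, 0.86 without cluster 6, 0.98 with the median ratio of genes as scale, and 0.98 in cells with no S100a8 UMI, an alternative added after the data were seen. With every cell weighted the same it was 1.08 for Cyba, 0.43 for Ncf1, 0.77 for Ncf4 and 0.62 for Rac2, and with thinned cells 1.01 for Cyba, 0.78 for Ncf4 and 0.61 for Rac2. As a mean over clusters it was 1.78 for Cybb (3 clusters), 0.56 for Cyba, 0.23 for Ncf1, 0.40 for Ncf4 and 0.36 for Rac2. Ncf1 was at 0.22 without cluster 6, and Rac2 at 0.59 with the median-ratio scale, which moves every gene by the same amount. The share with all 5 members followed depth: with all UMIs it was 16.0% of Jumonji and 2.96% of Renilla cells, and at 5000 UMIs 3.87% and 0.331%. Cybb was found in 17.0% of Jumonji cells with all UMIs. Counts of pathway genes stayed within 1.5 times the values given in 20 of 20 alternatives, list medians within their limit in 72 of 80 and correlations in 105 of 120; for the others the cause was not tested. Depth limits Cybb most, with 28 UMIs in the Renilla library.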

Other observations

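Fgr, a Src-family kinase of neutrophils that is related to Lyn, stayed under the minimum of 50 UMIs, with 30 UMIs in the Jumonji library and 1 in the Renilla library. Of the late neutrophil genes under the same minimum, Ly6g had 25 and 6 UMIs and Cxcr2, a chemokine receptor, 23 and 7 UMIs in the Jumonji and Renilla libraries. Fcnb, a granule lectin, had 1 and 5 UMIs. These are counts of 1 library each and were not compared further.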
